A study of Mus musculus with 48 samples.

Results

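The SWI/SNF subunit genes described here are Smarca2, Smarca4, Smarcb1, Smarcc1, Smarcc2, Smarcd1, Smarcd3, Smarce1, Arid1a and Arid1b, 10 genes listed by symbol, with no measured value in the rule, in a list drawn up with earlier results of these data known. All 10 had a row in both expression tables, among 16954 gene symbols common to the tables. Cerebral cortex RNA was sequenced from 48 mice in 12 groups of 4, to compare responses to nPM, a nanosized fraction of traffic-derived air pollution particles, between sexes and APOE alleles. The strains were C57BL/6J (B6, wild type) and B6 mice that carry human APOE3 or APOE4 in place of mouse Apoe by targeted replacement (APOE-TR). Each strain had female and male groups that breathed nPM and control groups that breathed filtered air, for 5 h per day on 3 days per week. Exposure lasted 8 weeks in B6 mice, which the labels give as 4 months old, and 15 weeks in APOE-TR mice, given as 6 months old. The B6 and APOE-TR mice belonged to separate exposures and separate tables, so strain, age, exposure time and table cannot be told apart, and no test was made between them. All groups of APOE-TR mice carry a human allele and none was a wild type control of the same exposure.

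SWI/SNF complexes, also called BAF complexes, use the energy of ATP to slide or evict nucleosomes, and so change which stretches of DNA transcription factors can reach. Each complex holds 1 ATPase, either BRG1 (Smarca4) or BRM (Smarca2). The canonical form has a core of BAF155 (Smarcc1), BAF170 (Smarcc2), BAF47 (Smarcb1) and a BAF60 protein (Smarcd1 and Smarcd3 among the genes described here). To these it adds BAF57 (Smarce1) and 1 of the large AT-rich DNA-binding proteins, BAF250A (Arid1a) or BAF250B (Arid1b). In the nervous system neural progenitors exchange several subunits as they become neurons, and mutations in many of these genes cause human neurodevelopmental disorders.

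The promoters of Smarca4 and Smarcd1 are shown because these were the 2 subunit genes with a nPM response over all mice. The 250 bases before each RefSeq start site (GRCm38.p6, forward strand, 5′ to 3′) are in lower case, with the GC box letters GGGCGG or CCGCCC and the palindrome TGCGCA in capitals.
Smarca4, chr9:21615919-21616168: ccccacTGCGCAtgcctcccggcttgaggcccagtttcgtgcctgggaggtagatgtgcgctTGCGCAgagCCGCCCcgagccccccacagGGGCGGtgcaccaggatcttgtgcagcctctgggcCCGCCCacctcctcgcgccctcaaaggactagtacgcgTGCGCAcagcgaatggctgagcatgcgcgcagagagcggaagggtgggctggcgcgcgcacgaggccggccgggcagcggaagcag
Smarcd1, chr15:99702037-99702286: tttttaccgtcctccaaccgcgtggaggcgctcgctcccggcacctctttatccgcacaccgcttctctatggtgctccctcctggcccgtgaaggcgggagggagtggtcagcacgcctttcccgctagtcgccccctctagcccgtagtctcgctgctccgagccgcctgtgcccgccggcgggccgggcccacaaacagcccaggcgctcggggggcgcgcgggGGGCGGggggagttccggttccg
The Smarca4 window held 3 GC boxes and 3 copies of TGCGCA, and the Smarcd1 window held 1 GC box and no TGCGCA. Of the 10 subunit genes 9 had at least 1 promoter entry, with 10 entries in all, and Smarce1 had none. The GC box was present in 9 of these 10 windows against 32.7% of 32851 RefSeq promoters of the same length, TGCGCA in 2 of 10 (Smarca4 and Smarcc1) against 6.43%, and CCGGAAG or CTTCCGG in 2 of 10 (Smarca2 and Smarcc1) against 6.91%. The motifs were searched on both strands, do not overlap each other by their letters in the printed windows, and are descriptions of sequence alone.

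All 10 genes were well detected in the cortex. Levels are CPM as deposited (read counts scaled by the depth of the library), and levels of different genes are compared per kb of transcript. In the 32 APOE-TR mice the highest means were 31.1 CPM per kb for Smarcc2 and 30.8 CPM per kb for Smarcd1, followed by 27.2 for Smarca2. Smarcc2 and Smarcd1 could not be placed in order, since Smarcc2 was the higher in 16 of 32 mice. The others followed with means of 18.3 CPM per kb for Smarcb1, 14.6 for Smarcd3, 11.3 for Smarca4, 9.89 for Arid1a, 8.82 for Smarce1, 6.65 for Smarcc1 and 4.83 for Arid1b. Smarca4 exceeded Arid1a in 30 of 32 mice and Arid1a exceeded Smarce1 in 25 of 32. In the 16 B6 mice Smarcd1 was again near the top with a mean of 35.4 CPM per kb, above Smarcc2 in 14 of 16 mice, and Smarcc1 was the lowest with 2.71. The means of Smarca2 (8.53 CPM per kb) and Smarca4 (8.45) could not be ordered in B6 mice, where Smarca2 was the higher in 7 of 16. The lowest number of estimated reads behind any of these values was 56, for Smarcc1 in a B6 male control.

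**Figure D1:**
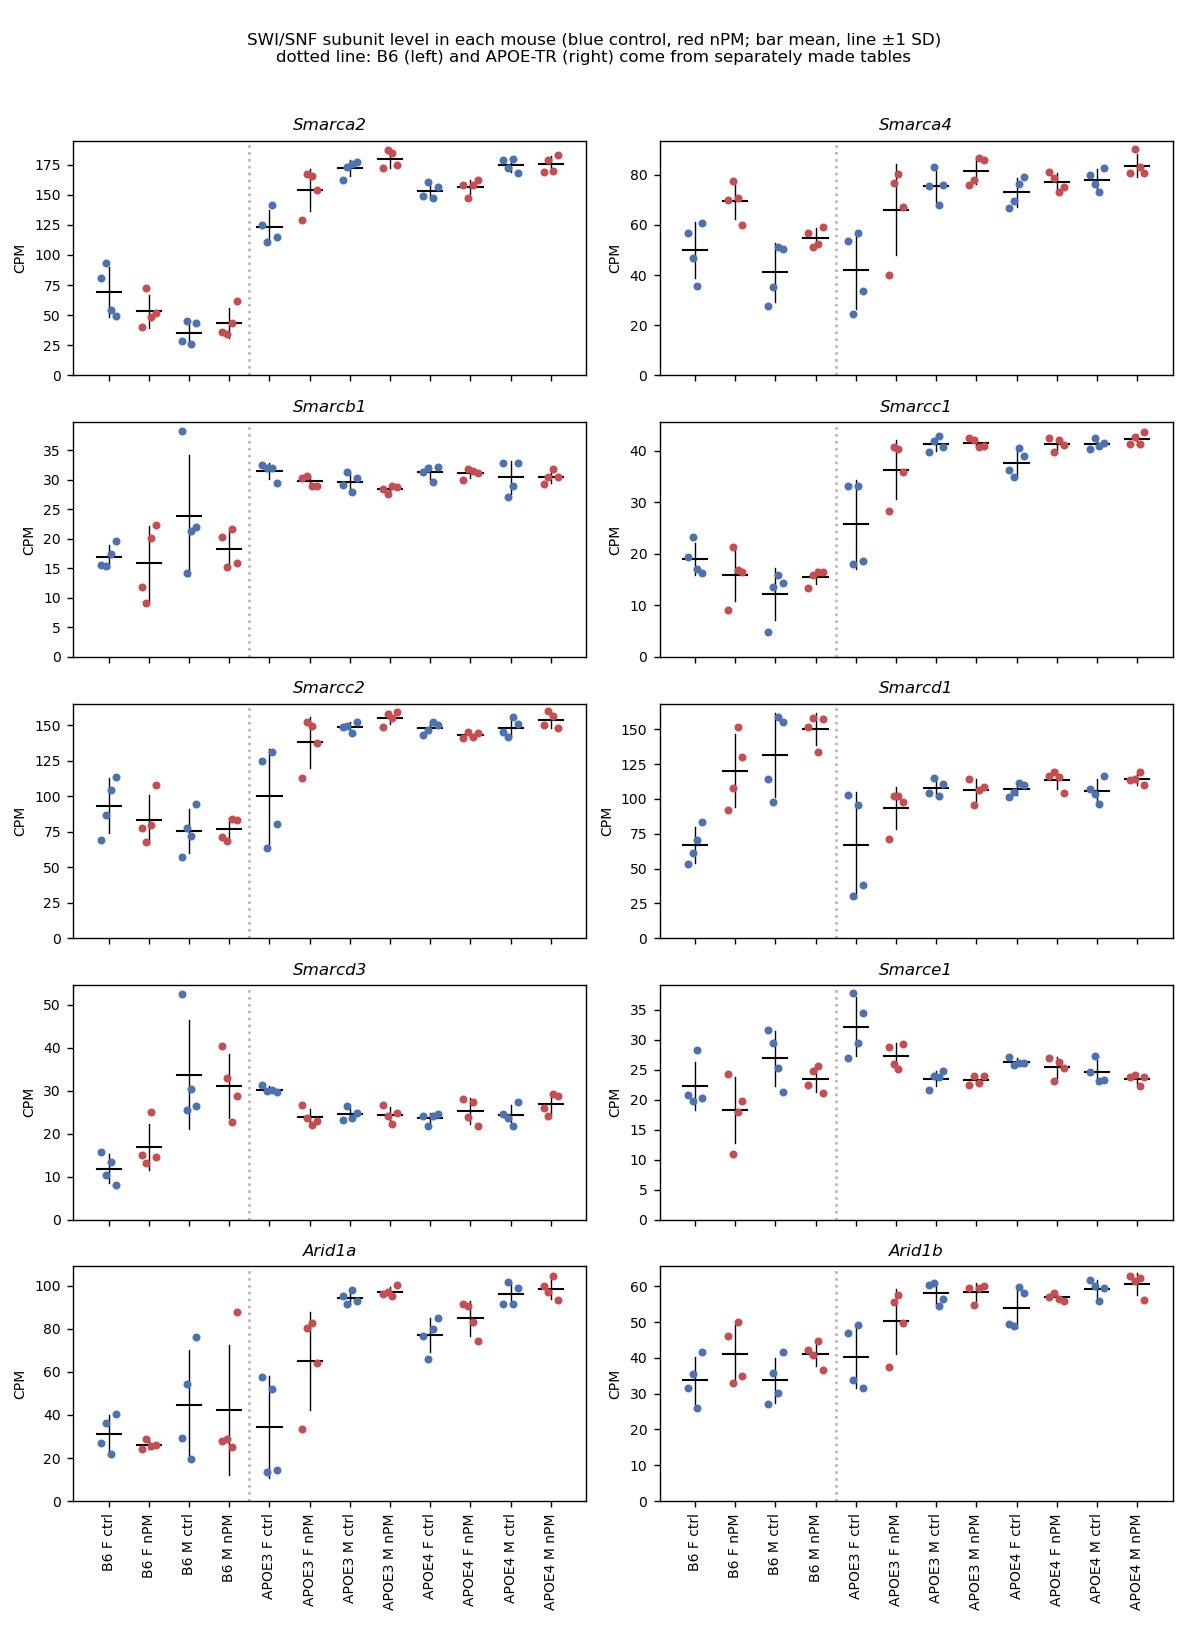
CPM of the 10 SWI/SNF subunit genes in each of 48 mice, by group (F, female; M, male; ctrl, filtered air), with B6 groups left of the dotted line; bars are group means and lines are 1 SD. APOE3 female controls reach down to 13.4 CPM for Arid1a and 24.7 CPM for Smarca4, while APOE-TR males stay within a narrow band for each gene.

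Levels were stable in APOE-TR males and variable in APOE3 females. Across 16 APOE-TR males the highest mouse exceeded the lowest by 1.10-fold for Smarcc1 to 1.33-fold for Smarcd3. Across 16 APOE-TR females this fold range was 1.12 for Smarcb1 but 3.28 for Smarca4, 3.90 for Smarcd1 and 6.82 for Arid1a. Most of this spread lay in 3 APOE3 female libraries, the controls F61 and F6 and the nPM mouse F55. Without them the range was 1.51-fold for Smarca4, 1.24-fold for Smarcd1 and 1.76-fold for Arid1a. Among 8 B6 females the highest mouse exceeded the lowest by 1.67-fold for Smarcc2 to 3.09-fold for Smarcd3, and among 8 B6 males by up to 4.44-fold, for Arid1a.

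F61, F6 and F55 had the lowest length slopes of the 32 APOE-TR libraries. These slopes (log2 CPM of a gene, less its mean over APOE-TR mice, per doubling of its transcript) were −0.63, −0.46 and −0.26, against 0.06 to 0.19 in APOE-TR males. The next APOE-TR libraries were the APOE3 female controls F63 (−0.18) and F52 (−0.13), so F55 lay closer to these than to F61, and among B6 mice, measured against their own mean, the male control M0 had −0.26. Long transcripts in general, those of Arid1a and Smarca4 among them, were low in these 3 libraries, and the differences of the 10 subunits that turn on these libraries are given with and without them. Length was not their only oddity. The slope of log2 level on transcript GC (per 10 percentage points) was −0.51 in F61 and −0.36 in F6, the lowest of the APOE-TR libraries. Mitochondrial COX1 was highest in F61, F6 and F55 (58785, 47738 and 35351 CPM), with F63 next at 31684 CPM. The GC slope was fitted as a covariate in place of the length slope and not beside it, and the part of COX1 was not tested. Cortical projection neuron markers (Slc17a7, Tbr1, Emx1, Neurod6) summed to 416 CPM in F61 and 474 CPM in F6, against 656 to 1133 CPM in the other APOE-TR mice. The B6 male controls M0 and M2 went against their cortex label in the same list, with sums of 59.1 and 170.0 CPM, while other B6 mice had 423 to 874 CPM. Neuron markers were detected for 7 of 7 genes in every group. Sex-linked Xist and Ddx3y matched the labelled sex in every group. Estimated depth ran from 2050080 to 31260900 reads per library, and no pair of libraries held identical values. The part of the cell type markers in any result was not tested. In bulk tissue, fewer cells of a type and less RNA per cell cannot be told apart.

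**Figure D2:**
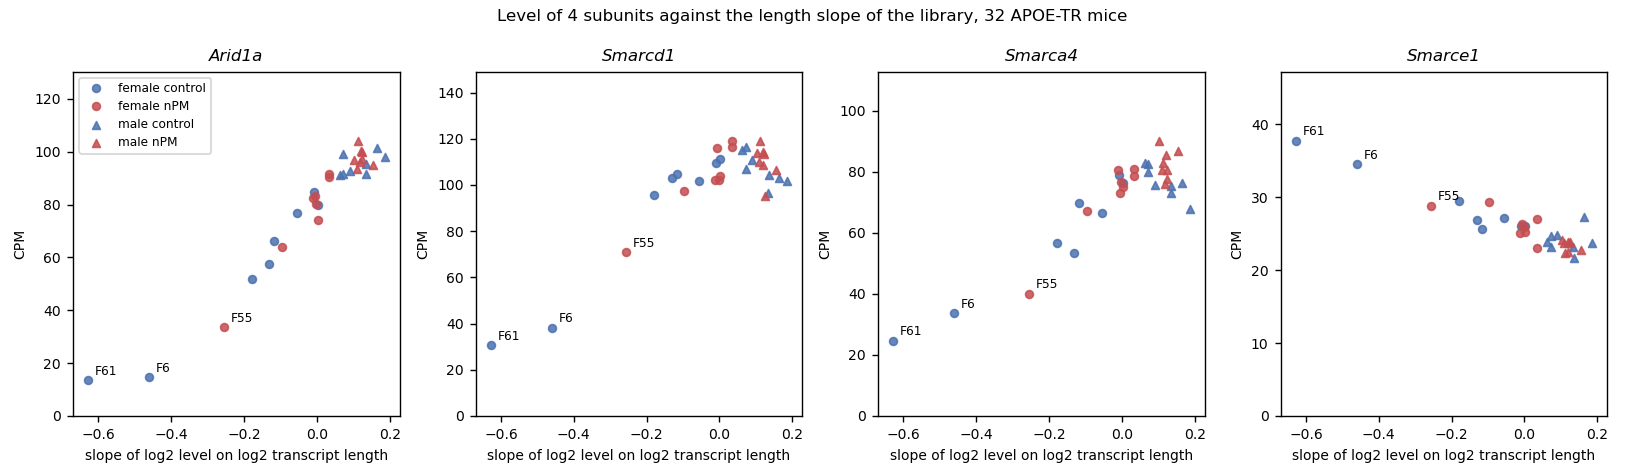
CPM of Arid1a, Smarcd1, Smarca4 and Smarce1 against the length slope of the library in 32 APOE-TR mice, each point a mouse (circles female, triangles male, blue control, red nPM). The libraries F61, F6 and F55 are at slopes of −0.63 to −0.26 and hold the lowest Arid1a, Smarcd1 and Smarca4 values, whereas Smarce1 is highest in F61 and F6, at 37.8 and 34.5 CPM.

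Over all 48 mice, the ATPase gene Smarca4 and the core subunit gene Smarcd1 were higher with nPM, in a limma fit with terms for sex, genotype and exposure. Smarca4 was higher with nPM by 0.32 ± 0.096 (SE) on the log2 scale, or +24.6%, and Smarcd1 by 0.31 ± 0.103, or +24.1% (limma adjusted p = 0.301 for both). These 2 of 10 genes passed the unadjusted p of 0.005 used for nPM DEGs, which 1.49% of all 11082 tested genes passed, and "passed" below refers to this threshold. No gene of the 11082 (0%) reached 5% FDR in this limma fit, while 1607 (14.5%) had an unadjusted p under 0.05, 3 of the 10 subunits among them. The median difference of the 10 subunits was 0.11 and that of all genes was −0.01, and 8 of 10 subunits were above 0 against 48.5% of all genes. Arid1b, which encodes BAF250B, was the third, at 0.17 ± 0.063 (SE), and Smarce1 differed by −0.15 ± 0.074. Without F61, F6 and F55 these were 0.14 ± 0.053 and −0.12 ± 0.072. The other 6 subunits lay between −0.11 for Smarcb1 and 0.17 for Arid1a, and none of them had an unadjusted p under 0.05.

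Smarca4 is on chromosome 9 at 21616169 to 21704231 (mm10, plus strand) and was above 0 with nPM in both sexes of each genotype. Among B6 females, controls had 56.8, 46.9, 35.5 and 60.8 CPM and nPM mice 69.9, 77.4, 70.7 and 59.9 CPM. Only the lowest nPM female fell below the highest control. Among B6 males, controls had 27.6, 35.1, 51.4 and 50.5 CPM and nPM mice 56.8, 51.1, 52.6 and 59.2 CPM. The 2 lowest of these controls were M0 and M2, and the remaining controls overlapped with nPM mice.
Among APOE3 females, controls had 53.6 (F52), 24.7 (F61), 56.6 (F63) and 33.6 CPM (F6), and nPM mice had 40.1 (F55), 76.6 (F59), 80.5 (F67) and 67.1 CPM (F70). F55 fell inside the control range, and the other 3 nPM mice were above all controls. Among APOE3 males, controls had 67.8 to 83.0 CPM (median 75.6) and nPM mice 75.99 to 86.8 CPM (median 81.7). Among APOE4 females, controls had 66.6 to 78.9 CPM and nPM mice 73.1 to 81.0 CPM. Among APOE4 males, controls had 72.9 to 82.7 CPM and nPM mice 80.5 to 90.3 CPM. The groups overlapped in all of these comparisons.

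The Smarca4 difference was above 0 in each of the 6 fits of a single sex and genotype, from 0.09 in APOE4 females to 0.74 in APOE3 females. These fits share no mice. Arid1b was also above 0 in 6 of 6 fits (0.02 to 0.38), as were 5.86% of 11082 genes, and Smarce1 was below 0 in 6 of 6 fits (−0.28 to −0.01), as were 3.83%. Smarca4 did not pass the threshold in any single fit of 8 mice.
Without F61, F6 and F55 the Smarca4 difference over 45 mice was 0.26 ± 0.069 (SE) and passed, as 0.803% of all genes then did. Leaving out the B6 male controls M0 and M2 gave 0.27 ± 0.093, which no longer passed (1.11% of genes did). With all 5 libraries left out it was 0.20 ± 0.058 and passed. With sample quality weights, which give less weight to more variable libraries, it was 0.08 ± 0.036 and did not pass, and Smarcd1 was 0.05 ± 0.039. In females alone, with all libraries, the difference was 0.44 ± 0.139 and in males alone 0.21 ± 0.080. The female response exceeded the male response by 0.21 ± 0.153 (limma adjusted p = 0.533), and by 0.13 ± 0.116 without F61, F6 and F55, so a difference between sexes was not detected.

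**Figure D3:**
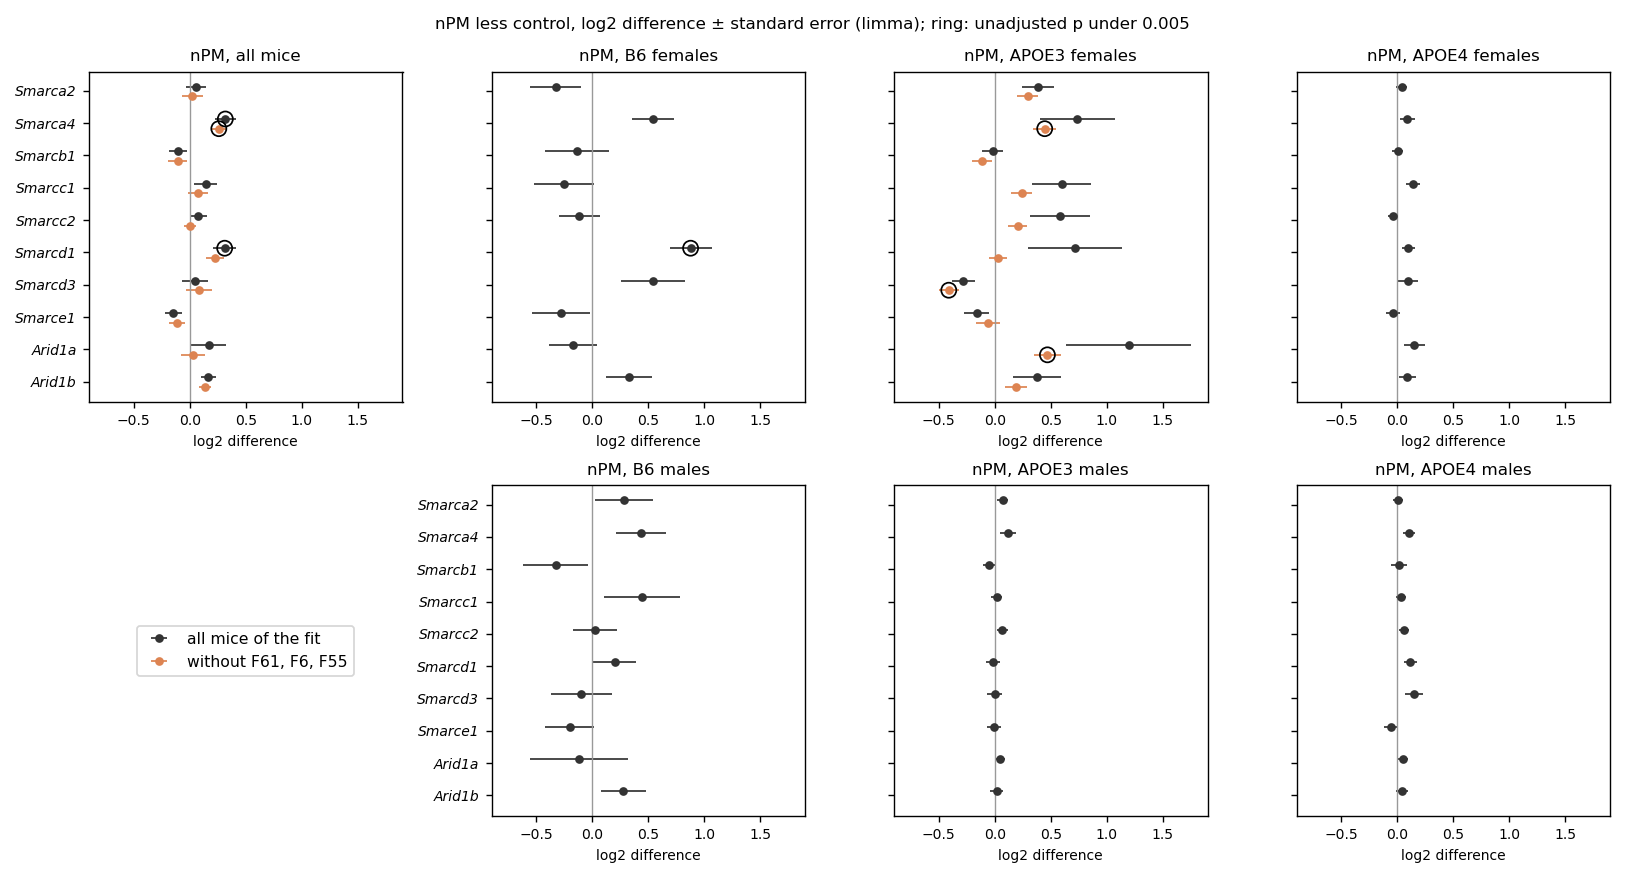
Log2 difference of nPM and control mice with its standard error from limma for 10 subunit genes, over all 48 mice and in each fit of 8 mice; rings mark an unadjusted p under 0.005 and orange points leave out F61, F6 and F55. Smarca4 lies above 0 in every panel, from 0.09 to 0.74, and error bars are shortest in APOE-TR males and APOE4 females.

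Smarcd1 encodes BAF60A, a subunit through which transcription factors contact the complex, and lies on chromosome 15 at 99702287 to 99713996 (mm10, plus strand, as the APOE-TR table gives it). Its response was led by B6 females, where controls had 52.9, 61.3, 70.4 and 83.5 CPM and nPM mice 91.9, 108, 151 and 130.0 CPM. All 4 nPM females were above all 4 controls, an order that 2.55% of 14772 genes had. In the limma fit of B6 females Smarcd1 was higher with nPM by 0.88 ± 0.188 (SE), or +83.8% (adjusted p = 0.278). It was the only 1 of 10 subunits past the threshold, against 1.18% of all genes. Smarca4 differed by 0.54 ± 0.188 in the same mice and did not pass, and the median of the 10 subunits was −0.13.
The B6 female groups also differed in how a gene's level went with the GC content of its transcript. The GC slope (log2 per 10 percentage points) was −0.51 to −0.29 in control libraries and −0.33 to 0.08 in nPM libraries, and the Smarcd1 transcript has 57.2% GC. With this slope as a covariate the Smarcd1 difference in B6 females was 0.33 ± 0.232 (SE) and did not pass. With the slope of transcript length in its place it was 0.79 ± 0.163 and passed. Astrocyte markers (Gfap, Aqp4, Aldh1l1, Slc1a3, Slc1a2, Gja1, S100b; 7 of 7 detected) summed to 3190 to 3683 CPM in B6 female controls and 2428 to 2944 CPM in nPM mice, and their part in the result was not tested.

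B6 males did not share this pattern, with Smarcd1 at 114, 97.6, 159 and 155 CPM in controls and 152, 158, 133 and 157 CPM in nPM mice. The 2 lowest values were M0 and M2, and the groups overlapped. Over all 12 groups the Smarcd1 response was larger in females than in males by 0.45 ± 0.173 (SE; limma adjusted p = 0.282), short of the threshold that 1.97% of genes passed. Without M0 and M2 this difference was 0.55 ± 0.184 and passed, where 3.17% of genes did. Without F61, F6 and F55 it was 0.23 ± 0.109 and did not pass. With the GC slope as a covariate it was 0.14 ± 0.114.
Over all 48 mice the Smarcd1 call was marginal. It was lost in 21 of the 48 fits that left out a single mouse, whereas Smarca4 kept its call in all 48. Without F61, F6 and F55 Smarcd1 differed by 0.22 ± 0.081 (SE) and did not pass, and with the GC slope as a covariate it differed by 0.15 ± 0.069.

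In APOE3 females the nPM differences of Arid1a, Smarca4 and Smarcd1 were large but uncertain. Arid1b, with the longest transcript of the 10 subunits (11325 bases), did not exceed 0.38 in any single fit. None of 10 subunits passed the threshold, which 0.671% of 16390 genes did. Smarca2 and Smarcd3, 2 of 10, had an unadjusted p under 0.05 against 21% of genes, and edgeR called 0 of 10. Arid1a, which encodes the BAF250A subunit, had 57.4 (F52), 13.4 (F61), 51.99 (F63) and 14.6 CPM (F6) in controls and 33.5 (F55), 80.4 (F59), 82.6 (F67) and 64.1 CPM (F70) in nPM mice. The 3 libraries with steep length slopes were the 3 lowest, and the groups overlapped only through F55. The Arid1a difference was 1.19 ± 0.559 (SE; limma adjusted p = 0.23) over these 8 mice and 0.47 ± 0.119 over the 5 mice without F61, F6 and F55. In those 5 mice (3 nPM and 2 control mice) Smarca4 differed by 0.45 ± 0.10 and Smarcd3 by −0.41 ± 0.090, so that with Arid1a 3 of 10 subunits passed, where 5.19% of 16750 genes did. With the length slope as a covariate over all 8 mice Arid1a differed by −0.06 and Smarca4 by 0.00, and the median of the 10 subunits went from 0.48 to −0.03. The GC slope in its place gave a median of 0.00.
Smarcd1 had 103, 30.5, 95.8 and 38.3 CPM in these controls and 70.9, 102, 102 and 97.5 CPM in nPM mice. Its difference was 0.72 ± 0.421 (SE) over these mice and 0.03 ± 0.080 without F61, F6 and F55.

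Smarcd3, which encodes BAF60C and is best known for its role in heart and muscle development, kept its nPM difference in APOE3 females when those libraries were left out. Its row lies on chromosome 5 at 24592622 to 24602003 (mm10, minus strand, APOE-TR table). Controls had 31.3, 29.8, 30.2 and 29.6 CPM and nPM mice 26.7, 23.5, 22.1 and 22.8 CPM. All 4 nPM mice were below all 4 controls, an order that 3.85% of genes had. The difference was −0.28 ± 0.10 (SE; limma adjusted p = 0.23), −0.32 ± 0.093 with the length slope as a covariate and −0.31 ± 0.091 with the GC slope, none of which passed.
Smarcd3 in the other 6 APOE-TR groups was between 21.7 and 29.2 CPM in every mouse, so the APOE3 female controls were the high group. Microglia markers (Cx3cr1, P2ry12, Tmem119, Csf1r, Aif1, Itgam; 6 of 6 detected) summed to 231 to 259.8 CPM in APOE3 female controls and 169.6 to 218 CPM in nPM mice. Oligodendrocyte markers (Mbp, Mog, Mag, Mobp, Cnp, Cldn11; 6 of 6 detected) summed to 3452 to 4561 CPM and 2693 to 3578 CPM in the same groups. Their part in the Smarcd3 difference was not tested. Smarce1, by contrast, was high in F61 (37.8 CPM) and F6 (34.5 CPM) among controls at 26.9 to 37.8 CPM, against 25.1 to 29.3 CPM in nPM mice (difference −0.16 ± 0.113, SE).

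In APOE3 males and in APOE4 mice of either sex no subunit passed the nPM threshold in limma, which 0.154% (APOE3 males), 0.266% (APOE4 females) and 0.178% (APOE4 males) of tested genes did. Smarcc1 in APOE4 females (0.14 ± 0.063, SE) was the only subunit of these 3 fits with an unadjusted p under 0.05, where 2.24%, 5.56% and 4.19% of genes had one in the same order of groups. Differences did not exceed 0.15 in size in any of them. In simulated data for APOE3 males, 198 of 200 genes with a log2 change of 1 were recovered at this threshold, and smaller changes were not simulated. In B6 males no subunit passed either, where 0.234% of genes did. Smarca4 differed there by 0.44 ± 0.223 (SE), and by 0.09 ± 0.211 without M0 and M2.

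The nPM response of Smarcd3 was compared between the alleles. APOE4 female controls had 24.0, 21.7, 24.0 and 24.6 CPM and nPM mice 28.0, 23.8, 27.4 and 21.7 CPM, groups that overlapped. In the limma fit of the 8 APOE-TR groups the nPM response of Smarcd3 was higher in APOE4 than in APOE3 mice by 0.27 ± 0.085 (SE; adjusted p = 0.443) and passed, 1 of 10 subunits against 0.726% of 15970 genes. Within females the difference between responses was 0.38 ± 0.121 (limma adjusted p = 0.126) and passed, as 3.76% of genes did, and in males it was 0.15 ± 0.121. The value within females was 0.50 ± 0.131 (SE) without F61, F6 and F55, 0.40 ± 0.125 with the length slope and 0.44 ± 0.127 with the GC slope as a covariate, and passed in each. The call was lost in 16 of 32 fits that left out a single mouse over the 8 groups and in 8 of 32 within females, and within females also without the filter on low values (0.38 ± 0.126).
Of the other subunits, Smarcc2 (−0.62 ± 0.207, SE), Smarca2 (−0.34 ± 0.114), Smarca4 (−0.64 ± 0.272), Arid1a (−1.04 ± 0.445) and Smarcc1 (−0.45 ± 0.208) had differences below 0 between APOE4 and APOE3 females without passing. Along with Smarcd3 these were 6 of 10 at an unadjusted p under 0.05, against 29.4% of all genes. Without F61, F6 and F55 Smarcc2 (−0.26 ± 0.069, SE), Smarca2 (−0.27 ± 0.079) and Smarca4 (−0.37 ± 0.114) passed along with Smarcd3, 4 of 10 against 4.21% of genes, while Arid1a (−0.33 ± 0.127) and Smarcc1 (−0.11 ± 0.080) did not. With the length slope as a covariate Arid1a, Smarca4 and Smarcc1 were no longer under 0.05. Smarcc2 was −0.22 ± 0.095 (SE) and Smarca2 −0.18 ± 0.086 there. In males no subunit was under 0.05, while 0.883% of all genes were.

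Between the APOE alleles over all 48 mice, none of 10 subunits reached 5% FDR in limma, which 0.37% of 11082 genes did. No subunit passed 0.005 either, as 1.8% of genes did, and 4 had an unadjusted p under 0.05 against 14.6% of genes, each with a difference above 0. Arid1a differed by 0.48 ± 0.191 (SE), Smarcd1 by 0.31 ± 0.127, Smarca4 by 0.30 ± 0.117 and Arid1b by 0.18 ± 0.077 (limma adjusted p = 0.288, adjusted p = 0.296, adjusted p = 0.283 and adjusted p = 0.305). Without F61, F6 and F55 the same differences were 0.14, 0.12, 0.09 and 0.07, none with an unadjusted p under 0.05.

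The widest allele differences were those of control females. None of 10 subunits reached 5% FDR there in limma (0.231% of 16416 genes did; edgeR called 0 of 10) and none passed 0.005 (5.93% of genes did), but 8 of 10 had an unadjusted p under 0.05, against 41.1% of all genes. Of these 7 had differences above 0 between APOE4 and APOE3, of 0.39 (Smarca2), 0.51 (Arid1b), 0.67 (Smarcc1), 0.70 (Smarcc2), 0.93 (Smarca4), 0.94 (Smarcd1) and 1.52 (Arid1a). Smarcd3 had a difference of −0.28. Their adjusted p-values in limma ran from 0.0766 (Smarca2 and Smarca4) to 0.116 (Smarcd1). Arid1a was 76.7, 66.2, 80.0 and 84.9 CPM in APOE4 female controls, all above the 13.4 to 57.4 CPM of APOE3 female controls. In 5 subunits (Smarca2, Smarca4, Smarcc1, Smarcc2 and Arid1a) every APOE4 control exceeded every APOE3 control and in Smarcd3 the order was the opposite, while 12.7% of all genes had all APOE4 controls above and 16.5% all below. This comparison uses the same 4 APOE3 female controls as the nPM response of APOE3 females, so the values are not independent of those above.
Without F61 and F6 the differences in control females were 0.51 ± 0.107 (SE) for Arid1a, 0.42 ± 0.092 for Smarca4 and −0.35 ± 0.087 for Smarcd3, and these 3 of 10 passed 0.005 where 6.5% of all genes did. None of them reached 5% FDR. With the length slope as a covariate over all 8 mice Smarcd3 was −0.41 ± 0.084 (SE) and passed 0.005, 1 of 10 against 2.08% of genes. The median of the subunits went from 0.59 to 0.00 under that covariate, and to 0.01 with the GC slope in its place.

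**Figure D4:**
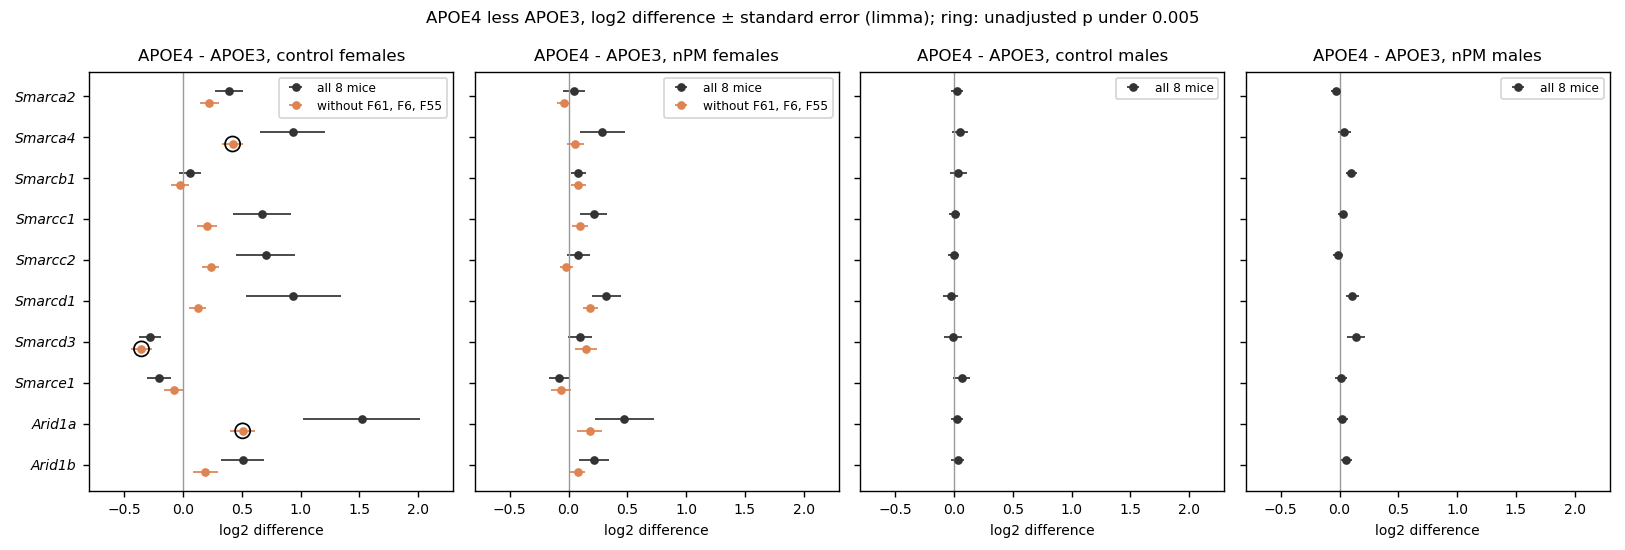
Log2 difference of APOE4 and APOE3 mice with its standard error from limma for the 10 subunit genes, in control and nPM mice of each sex, with all mice and without F61, F6 and F55. Differences reach 1.52 in control females with all mice, and lie between −0.03 and 0.06 in control males.

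In males the allele differences were small, between −0.03 and 0.06 in controls (SE 0.047 to 0.075) and between −0.03 and 0.14 with nPM. In control males 0.439% of genes reached 5% FDR and in nPM males 0.498%, and no subunit did in either limma fit. Smarcb1, which encodes the core subunit BAF47, had an unadjusted p under 0.05 in nPM males (0.10 ± 0.044, SE; 9.89% of genes had one). All 4 APOE4 nPM males (29.2 to 31.8 CPM) were above all 4 APOE3 nPM males (27.6 to 29.0 CPM), an order in that direction that 2.6% of genes had. In nPM females no subunit reached 5% FDR, as 0.145% of genes did. Smarcd1 differed between APOE4 and APOE3 nPM females by 0.32 ± 0.123 (SE; limma adjusted p = 0.531), with 104 to 119 CPM against 70.9 to 102 CPM and no overlap, an order that 2.42% of genes had. Without F55 the difference was 0.19 ± 0.065.

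Paralogs that take the same place in the complex were compared as ratios within each mouse. BAF170 RNA exceeded BAF155 RNA in every mouse, and the log2 ratio of Smarcc2 to Smarcc1 had group means between 1.80 and 1.98 in all 8 APOE-TR groups, the APOE3 female controls (1.96 ± 0.12, SD, n = 4) among them. The ratio of Smarca4 to Smarca2 was −1.62 ± 0.43 (SD, n = 4) in APOE3 female controls and −1.26 ± 0.29 with nPM, and had means of −1.19 to −1.02 in the other APOE-TR groups. In B6 females this ATPase ratio was −0.46 ± 0.54 in controls and 0.42 ± 0.32 with nPM, with a single control mouse inside the nPM range.
The ratio of Arid1a to Arid1b was −0.52 ± 0.83 in APOE3 female controls, 0.31 ± 0.33 with nPM and 0.51 to 0.74 in the other APOE-TR groups. The ratio of Smarcd1 to Smarcd3 was 0.95 ± 0.87 in APOE3 female controls, 1.96 ± 0.37 with nPM and 2.09 to 2.18 in the others. Ratios are from CPM without division by length, have no test here, and compare mice rather than genes.

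**Figure D5:**
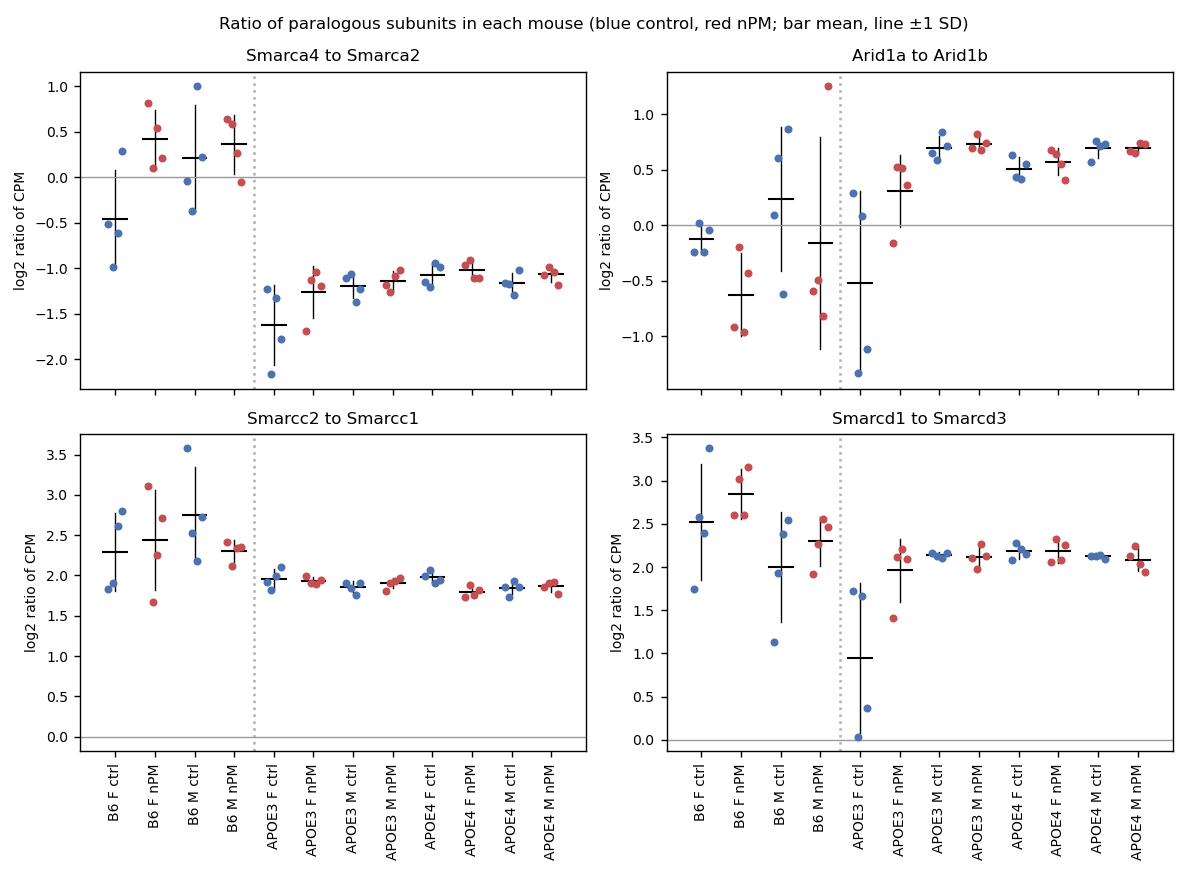
Log2 ratio of CPM for 4 pairs of paralogous subunits in each mouse, blue control and red nPM, with group mean and 1 SD. The Smarcc2 to Smarcc1 means stay between 1.80 and 1.98 in APOE-TR groups, while the other 3 ratios are lowest in APOE3 female controls among those groups.

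The 20 other SWI/SNF subunits of the same list were compared beside the 10. Of 18 tested over all 48 mice, 0 passed the nPM threshold in limma, and 2 had an unadjusted p under 0.05: Bicra, an accessory subunit of the GBAF form (0.43), and Bcl11a, a zinc finger protein that joins the neural complex (0.21). Their median was 0.05. The shares of all genes were 1.49% and 14.5%, as above, and these values use all 48 mice. Among the ATPases of other remodeller families 0 of 21 passed and 4 had an unadjusted p under 0.05, namely Chd5 (0.40), Srcap (0.39), Ercc6 (0.25) and Chd4 (0.16), beside the same shares of all genes. Their median was 0.10, beside 0.11 for the 10 subunits. For nPM it was 0.58 beside 0.48 in APOE3 females and 0.01 beside −0.13 in B6 females. Between alleles in control females both medians were 0.59. Srcap passed for nPM in B6 females, 1 of 22 against 1.18% of genes. It also passed 0.005 between alleles over 48 mice, 1 of 21 against 1.8%. Chd9 was lower in APOE4 nPM males, the 1 of 22 with an unadjusted p under 0.05 against 9.89%. Chd4 and Chd5 are the motors of NuRD complexes, and Srcap deposits the histone variant H2A.Z. Smarca4 was the ATPase with the smallest p of all remodeller motors tested over 48 mice, and its difference from the others was not tested.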

How the data were processed

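RNA from cerebral cortex was measured in 48 mice. Per the paper and the submitters' processing notes, the authors mapped single-end reads with TopHat2 2.0.8b to mm10 in Partek Flow, kept uniquely mapped reads and deposited CPM in 1 table for B6 and 1 for APOE-TR mice. How the CPM were scaled is not given in the sources used here. In APOE-TR mice whole reads could be recovered from the CPM. In B6 mice depth is an estimate. The labels do not say more of replicates than separate animals. The column of APOE3 female control F6 carries a number that matches no sample title, and was used by its group label. Symbols with repeated rows (4 rows in each table) were left out.

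TMM factors (edgeR 4.0.16) were applied to the CPM, and log2(CPM + 0.5) was the scale of all differences, which understates those of low genes. limma 3.58.1 in R 4.3.3 (linear models, moderated variances with a trend) was run on genes that exceeded a mouse's lowest value in all mice used. Adjusted p-values are Benjamini-Hochberg over all genes tested and two-sided. As in the study's design, nPM calls used an unadjusted p of 0.005 and allele calls 5% FDR. Since groups hold 4 mice, single genes are given with their SE, main results also with the adjusted p, and whether a gene passed the unadjusted threshold is stated without its unadjusted p. Contrasts of 12 (sex) or 8 group means (allele) tested differences between responses.

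On simulated data with 200 genes changed by 1 on the log2 scale, 200 were recovered over 48 mice, 116 in B6 females, 198 in APOE3 males and 172 for the allele difference in females. The alternatives were edgeR's quasi-likelihood test on recovered reads, voom, ComBat (sva 3.50.0), sample quality weights, shared variance, pseudocounts of 0.1 and 2, no TMM, no filter, a transcript length covariate, subsets by sex or strain, and leaving out mice one by one. A GC covariate and fits without named libraries were added after seeing the data. The text names all 10 subunits, the subunits exchanged as neurons mature and Smarcd2. Other listed genes are named for an unadjusted p under 0.05 for nPM over 48 mice, or under 0.005 in another fit. The 5 genes most like the mean of the 10 subunits are also named. The members and gene lists were chosen with earlier results of these data known. Cell type marker sums cover the genes named in the text, and 3 listed marker genes are not reported here.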

Additional observations from a re-analysis of the deposited data

Results flagged for a closer look

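In 5 of the 120 sets of 4 mice (10 subunits in 12 groups), 1 mouse lay far from the other 3, where chance marks about 1 in 20. Smarcd1 in APOE3 nPM females was 70.9 CPM in F55 against 97.5 to 102 CPM in the others. Smarcd3 in B6 nPM females was 24.9 CPM in F52 against 13.3 to 15.1 CPM. Smarce1 in B6 control females was 28.3 CPM in F42 against 19.8 to 20.8 CPM. Arid1a in B6 nPM males was 87.6 CPM in M16 against 25.3 to 28.8 CPM, and B6 male controls ran from 19.7 to 75.9 CPM for the same gene. Arid1b in APOE3 nPM males was 54.8 CPM in M56 against 59.4 to 60.1 CPM.

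The nPM response differed between alleles at an unadjusted p under 0.005 for Smarcd3, by 0.27 over the 8 APOE-TR groups and by 0.38 in females. Smarcd2, the third BAF60 gene and named here after its value was seen, had a response 0.45 lower in APOE4 than in APOE3 females (log2 difference −0.45, limma adjusted p = 0.126), and −0.28 without F61, F6 and F55, which did not pass. The Smarcd3 call was lost in 16 of 32 fits without a single mouse over the 8 groups and in 8 of 32 in females.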

How the results depend on the processing

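No paired analysis was possible because the animal numbers name different mice and the groups compared share fewer than 2 numbers. Over 48 mice, 2 of 10 subunits passed for nPM. The count was 1 with a length covariate, a GC covariate, voom with ComBat, without F61, F6 and F55, or also without M0 and M2, and 0 with sample quality weights, without M0 and M2 alone, in males alone, or in APOE-TR mice alone. Leaving out single mice gave 1 to 3. Small differences of that fit changed sign: Smarca2 was −0.031 (length), −0.0037 (without the 5 libraries) and −0.035 (B6 alone), Smarcc2 −0.014 (without the 5) and −0.059 (B6 alone), Smarcd3 −0.090 (GC), −0.031 (voom with ComBat) and −0.011 (APOE-TR alone), and Arid1a −0.015 (males alone) and −0.16 (B6 alone), and Smarcd3 ranged from −0.0039 to 0.11 without single mice. In B6 females the count went from 1 to 0 with GC. In APOE3 females it went from 0 to 1 with quality weights, 3 without F61, F6 and F55 and 4 with shared variance. For the alleles in control females it went from 0 to 1 without TMM, with length or with GC, 2 with weights, 3 without F61 and F6 and 8 with shared variance, and at 5% FDR from 0 to 3 with weights and 9 with shared variance. Without single mice it was 0 to 4, and 0 to 7 at 5% FDR. Signs changed there for Smarcc1 (−0.0016, length) and Smarcd1 (−0.22 with length and −0.22 with GC). In nPM females the count was 2 with GC instead of 0. For the sex difference it was 1 without M0 and M2 and 1 without the 5 libraries instead of 0, and 0 to 1 without single mice. For the allele difference of the response it was 2 over 8 groups without F61, F6 and F55 instead of 1 (0 to 2 without single mice), and in females 3 with weights and 4 without those libraries instead of 1 (0 to 5). The cause of these changes was not tested. In control females 6.5% of all genes passed 0.005 without F61 and F6, and 2.08% with length. Most other counts here lack the share of all genes beside them. They describe how stable a call was, not the subunits apart from other genes. The Smarcd1 to Smarcd3 ratio of APOE4 male controls was 2.10 with 0.5 CPM added instead of 2.12. Of 763 values under alternatives, 662 were classed as unchanged. For log2 differences this meant the same direction and side of the threshold. For counts of subunits it meant the same or a similar count, and for ratios and mean levels a shift smaller than their SD. Fits that left out single mice were not among the 763. The count test was not run for fits with B6 mice, whose reads are estimates, and low depth there limits genes of few CPM.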

Other observations

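Among subunits that are exchanged as neurons mature, the neuronal form had the higher mean for BAF53 and for SS18 in both strains of mice, and the BAF45 family differed in order. Actl6b, the neuronal BAF53B gene, had a mean of 14.7 CPM per kb in 32 APOE-TR mice, against 2.60 CPM per kb for its progenitor paralog Actl6a, and in 16 B6 mice the means were 17.3 and 0.688. Ss18l1, which encodes the neuronal CREST protein, had 10.1 CPM per kb against 4.51 for Ss18, and 5.23 against 1.76 in B6 mice. In the BAF45 family Dpf1 had 11.2, Dpf2 7.73, Phf10 5.57 and Dpf3 0.548 CPM per kb in APOE-TR mice, whereas in B6 mice Phf10, a progenitor form, was the highest at 15.9, with Dpf2 at 7.08, Dpf1 at 5.30 and Dpf3 at 0.232. None of Actl6b, Ss18l1, Ss18, Dpf1, Dpf2 and Phf10 had an unadjusted p under 0.05 for nPM over 48 mice, and Actl6a and Dpf3 were below the filter there.

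Levels of 15960 genes were compared with the mean level of the SWI/SNF subunit genes described here. The 5 genes that followed this mean most closely across 32 APOE-TR mice were Nova2, Zfhx2, Spen, Zswim8 and Mef2d. Pearson's r was 0.99 for each, 0.88 to 0.91 over the 29 mice without F61, F6 and F55, 0.44 (Spen) to 0.86 (Zswim8) over 16 APOE-TR males, and 0.13 (Nova2) to 0.75 (Zswim8) over 16 B6 mice. Within the complex, 7 subunits followed the mean of the other 9 with r from 0.88 (Smarca2) to 0.98 (Smarcc1) over the 32 mice. Smarcb1 had 0.23, Smarcd3 −0.25 and Smarce1 −0.79. Over 29 mice the same 7 had 0.64 to 0.88, over 16 APOE-TR males Smarcd1 (0.76) and Smarca4 (0.72) had the highest values and Smarca2 the lowest (−0.077), and over 16 B6 mice no subunit exceeded 0.45. The values of a mouse come from 1 library and share its depth and length slope, whose part in these correlations was not tested.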
